A study of Mus musculus with 13 samples.

Results

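The comparison set 4 ovariectomized mice that carried an estradiol pellet on chow (E2) beside 3 ovariectomized mice on chow without a pellet (CON), 7 of the 13 mice of the study. Mice were taken into it by the group named in their titles. All were female C57BL/6 mice whose ovaries had been removed at 6 to 8 weeks of age, and treatment then lasted 12 weeks. E2 mice had a pellet under the skin that releases 17-β estradiol. CON mice had none. The sources used here do not give the pellet's dose. The other mice received a high-fat diet with the pellet (MIX, n = 3) or without it (HD, n = 3). The uterus was opened and its lining was scraped off, and each mouse gave 1 RNA sample and 1 Affymetrix array. The question was what estradiol alone does to endometrial transcripts once the ovarian source is gone.

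Estradiol acts in the uterus mainly through the estrogen receptor α, a transcription factor in epithelial and stromal cells that is encoded by Esr1. In the rodent uterus it is known for inducing secreted epithelial proteins, drawing water and white blood cells into the tissue and driving division of the epithelium. Macrophages and granulocytes of the uterus respond to growth factors and chemokines, among them those encoded by Csf1 and by the CXC chemokine genes. Removal of the ovaries leaves the receptor without its main ligand.

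The arrays held 65929 features, and 30142 genes were represented by the brightest feature that carries 1 gene symbol. Values are log2 expression, so a difference of 1 is a doubling, and the median over all values was 4.61, which serves here as the mark for dim features. Values of mice are given in the order of replicate numbers 1 to 4 in E2 and 1 to 3 in CON. CON mouse 3 and E2 mouse 4 carry a lettered code in their titles and the other 5 a numbered one, and code style was a term in the fit. Arrays correlated at 0.978 to 0.995 over 21 pairs. The first principal component of the 7 mice held 33.1% of the variance, with E2 mouse 1 at 70.74 and the other 6 mice between -34.81 and 13.67. Epithelial markers of endometrium were bright in both groups. Epcam averaged 10.54 ± 0.18 in E2 (SD, n = 4) and 10.55 ± 0.11 in CON (SD, n = 3). The keratin gene Krt8 averaged 11.27 in E2 and 11.36 in CON. The smooth muscle actin gene Acta2 was at 8.23 in E2 and 8.61 in CON. Over 16 smooth muscle markers the mean level was lower, at 6.12 in E2 and 6.31 in CON. Upk3b, a marker gene of the mesothelium on the outer uterine surface, was bright too, at 9.87 in E2 and 9.10 in CON.

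The largest differences between E2 and CON were all toward higher values in E2, and they lay in inflammatory, myeloid and mucosal genes. Of 749 genes whose groups did not overlap, whose unadjusted p in limma was under 0.05 and whose mean over the 7 mice was above the array median, 395 were higher and 354 lower in E2. Predicted symbols, sensory receptors, immune receptor segments and small RNA symbols were left out of the 749. The microRNA precursor Mir200b, at a difference of -1.57, is therefore not counted among them. The 2 sides differed in size. Among the higher genes 130 had a difference of at least 1, 38 of at least 2 and 16 of at least 3, up to 4.32. Among the 354 lower genes 7 reached a difference of -1 or beyond, 0 reached -2, and the most negative was -1.41. The median was 0.75 on the higher side and -0.33 on the lower side. A mean over the 7 mice admits genes that are dim in 1 group. S100a8 and Il1f9, with CON means of 3.28 and 4.52, passed it through their E2 mice. The contrast in size holds for genes chosen this way. Over all features the median difference was -0.009.

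Limma called 0 of 65929 features (0%) between E2 and CON at a Benjamini-Hochberg adjusted p under 0.05, and the smallest adjusted p was 1. At an unadjusted p under 0.05 there were 2651 features (4.02%), no larger a share than that threshold admits if no feature differs. Among genes with 1 symbol, E2 lay above CON without overlap for 1158 (3.84%) and below it for 931 (3.09%). An unadjusted p under 0.05 was reached by 789 genes on the higher side (2.62%) and 765 on the lower side (2.54%). With 4 against 3 mice an exact two-sided permutation test cannot give a p below 0.0571 for a single gene. If nothing differed, the same 0.0571 is the share of genes expected without overlap, on both sides together. All values below are therefore levels and differences that did not pass, each with an adjusted p of 1 in limma. Nothing in the deposited labels says whether the mice of a group shared a cage or a day of surgery.

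**Figure D1:**
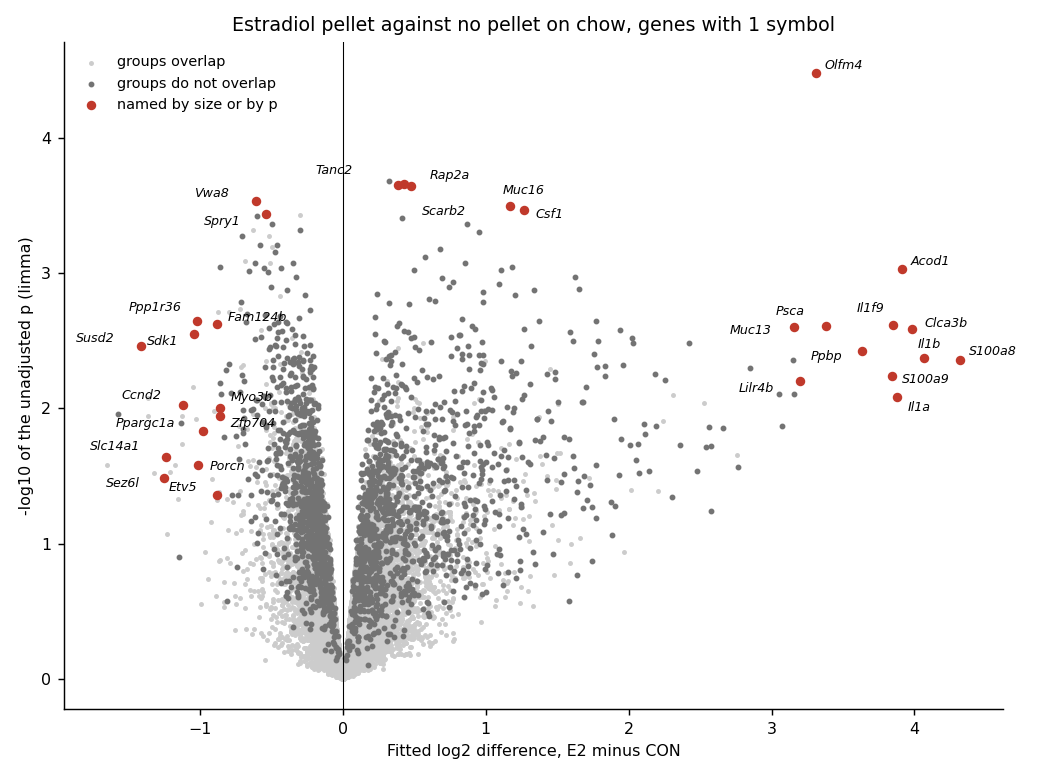
Fitted log2 difference of E2 minus CON (horizontal) against the -log10 of the unadjusted limma p (vertical) for genes with 1 symbol. Light grey points are genes whose groups overlap, dark grey points genes whose groups do not, and red points the genes named by size or by p; the positive side reaches 4.32 and the labelled negative side -1.41.

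The cytokine genes of the interleukin 1 family led the higher side. Il1b, which encodes the secreted cytokine interleukin 1 beta, was at 11.18, 7.21, 9.45 and 9.18 in E2, against 5.28, 5.11 and 5.22 in CON. Every E2 mouse lay above every CON mouse, E2 mouse 1 was highest, and the fitted difference was 4.07 (SE 1.11). Il1a, which encodes interleukin 1 alpha, was at 10.46, 9.54, 8.71 and 6.72 in E2, against 6.44, 4.29 and 3.96 in CON, a difference of 3.88 (SE 1.19). The lowest E2 mouse, replicate 4, was only just above the highest CON mouse, replicate 1. Il1f9, which encodes an epithelial member of the family, was at 9.84, 8.05, 8.97 and 6.81 in E2, against 5.16, 4.66 and 3.74 in CON, where its mean lay below the array median. Its difference of 3.85 (SE 0.96) can therefore be compressed. Over the 27 measured genes of the interleukin 1 and TNF pathway, 24 were higher in E2, 14 of them without overlap (51.9%, against 3.84% of all genes), and 0 were lower without overlap. Their median difference was 0.76, against -0.002 for all genes with 1 symbol, and it was 0.47 without E2 mouse 1.

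Other genes of that pathway make mediators of inflammation. Acod1, which encodes the enzyme that makes itaconate in macrophages and is also known from the uterine epithelium of rodents, was at 10.57, 8.72, 8.57 and 8.47 in E2, against 5.80, 5.01 and 4.62 in CON. The gap between the groups was wide and E2 mouse 1 stood above the other 3, with a difference of 3.91 (SE 0.85). Ptgs2, which encodes the inducible cyclooxygenase of prostaglandin synthesis, was at 10.37, 9.84, 9.67 and 8.38 in E2, against 7.89, 5.29 and 5.84 in CON. Its difference was 3.16 (SE 0.96), without overlap. Among 19 prostaglandin genes 11 were higher and 8 lower in E2, 3 of the higher ones without overlap (15.8%). The median was 0.18, and between 0.05 and 0.19 when 1 mouse was left out. Hpgd, whose product inactivates prostaglandins, was also higher in E2 at 8.78 ± 0.46 than in CON at 7.79 ± 0.22 (difference 0.97, SE 0.30). Ptgdr2, which encodes a receptor for prostaglandin D, was at 5.58 ± 0.18 in E2 and 6.30 ± 0.52 in CON (difference -0.72, SE 0.31).

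Granulocyte genes showed the widest single difference. S100a8, which encodes a calcium-binding protein abundant in neutrophils, was at 9.91, 6.13, 6.74 and 7.59 in E2, against 3.67, 3.17 and 3.00 in CON. All 3 CON mice were below the array median, and the fitted difference of 4.32 (SE 1.19, 19.9-fold) rests on such dim values. S100a9, the partner of S100a8 in the calprotectin complex, was at 10.98, 7.24, 8.65 and 8.89 in E2, against 5.35, 5.16 and 4.79 in CON, a difference of 3.84 (SE 1.10). The chemokine receptor gene Cxcr2, a defining marker of neutrophils, was at 7.40, 5.61, 6.72 and 5.97 in E2, against 5.33, 5.25 and 5.42 in CON. For these 3 genes E2 mouse 1 was highest and E2 mouse 2 lowest of the E2 mice. Of 23 granulocyte markers 18 were higher in E2, 9 without overlap (39.1%), with a median of 0.66, or 0.42 without E2 mouse 1. Only 2 of the 23, S100a8 and S100a9, had an unadjusted p under 0.05 in limma, and 6 lay below the array median. S100a8 and S100a9 are also made by inflamed epithelium, and in a bulk sample more cells of a type and more RNA per cell cannot be told apart.

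Chemokine genes pointed the same way. Ppbp, which encodes a CXC chemokine of platelets, was at 11.92, 8.15, 9.08 and 8.16 in E2, against 6.91, 5.28 and 4.75 in CON, a difference of 3.63 (SE 0.97). Cxcl2, which encodes a neutrophil attractant, was at 9.91, 7.06, 8.66 and 6.78 in E2, against 5.08, 5.01 and 4.92 in CON (difference 3.07, SE 1.03). The 3 CON mice lay within a narrow band for Cxcl2, and the 4 E2 mice spread over more than 3 log2 units. Among 23 CXC chemokine and receptor genes 18 were higher in E2, 8 without overlap (34.8%), with a median of 0.44 (0.65 without E2 mouse 2). Of 22 CC chemokine and receptor genes 17 were higher, 7 without overlap (31.8%), with a median of 0.43. On the higher side an unadjusted p under 0.05 in limma was reached by 7 CXC and 2 CC genes. Ccl3, a macrophage inflammatory chemokine gene, was at 10.06, 6.46, 7.66 and 7.40 in E2, against 5.42, 5.15 and 5.48 in CON (difference 2.56, SE 0.86).

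Macrophage markers were the list with the largest share of genes that did not overlap. Of 30 measured markers 28 were higher in E2, 19 without overlap (63.3%, against 3.84% of all genes), and 17 had an unadjusted p under 0.05 (2.62% of all genes on the higher side). The median difference was 0.97 and lay between 0.85 and 1.12 whichever mouse was left out. The defining marker Adgre1, which encodes a surface antigen that defines mouse macrophages, was at 6.96, 6.69, 7.12 and 7.39 in E2, against 6.01, 5.33 and 5.50 in CON (difference 1.43, SE 0.41). Csf1r, the receptor gene for macrophage growth factor, was at 7.85, 7.56, 8.39 and 7.85 in E2, against 7.14, 6.61 and 6.59 in CON (difference 1.12, SE 0.37). For both genes all E2 mice lay above all CON mice and no E2 mouse stood far from the others. The lysosomal marker Cd68 averaged 9.44 in E2 and 8.66 in CON.

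The members with the smallest p on that list carry out phagocyte functions. Mpeg1, which encodes a pore-forming protein of phagosomes, was at 8.08, 6.92, 8.52 and 8.49 in E2, against 6.59, 5.47 and 4.54 in CON (difference 2.42, SE 0.63). Ctss, a lysosomal protease gene of antigen-presenting cells, averaged 9.90 ± 0.50 in E2 and 8.23 ± 0.63 in CON. C1qb, a complement chain gene made by tissue macrophages, averaged 9.07 ± 0.57 in E2 and 7.51 ± 0.51 in CON. Lilr4b, which encodes a receptor of myeloid cells, was at 9.74, 6.49, 8.06 and 7.99 in E2, against 5.42, 4.70 and 4.41 in CON, a difference of 3.20 (SE 0.94). It has a near-identical neighbouring copy, so its probes may report on both.

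Csf1, the gene of the macrophage growth factor itself, was among the 8 genes of smallest p. It was at 7.46, 8.43, 7.90 and 7.63 in E2, against 7.03, 6.46 and 6.20 in CON, a difference of 1.27 (SE 0.24, unadjusted p = 0.000343). E2 mouse 2, which was lowest for S100a8, Il1b and Mpeg1, was the highest mouse for Csf1. Over the 14 colony-stimulating factor and receptor genes the median was 0.06 (0.18 without E2 mouse 4). Without overlap 3 were higher (21.4%, against 3.84% of all genes) and 0 lower, and the 3 were Csf1, Csf1r and the granulocyte receptor gene Csf3r (difference 1.68, SE 0.77).

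Lymphocyte and mast cell markers gave smaller values. T and NK cell markers had a median of 0.20 with 19 of 21 higher, 1 of them without overlap (4.76%, near the 3.84% of all genes), and the median was between 0.11 and 0.27 when 1 mouse was left out. B and plasma cell markers had a median of 0.01 over 16 genes, with 0 on either side without overlap. Mast cell markers had a median of -0.04 over 12 genes, 8 of which lay below the array median, among them the defining marker Cpa3 at 3.44 in E2 and 3.73 in CON. The exception on that list by size was Hdc, whose product makes histamine, at 9.18, 10.51, 10.07 and 10.88 in E2, against 9.65, 9.11 and 8.66 in CON, where E2 mouse 1 lay below CON mouse 1. Its difference of 1.01 was 0.53 without E2 mouse 4.

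**Figure D2:**
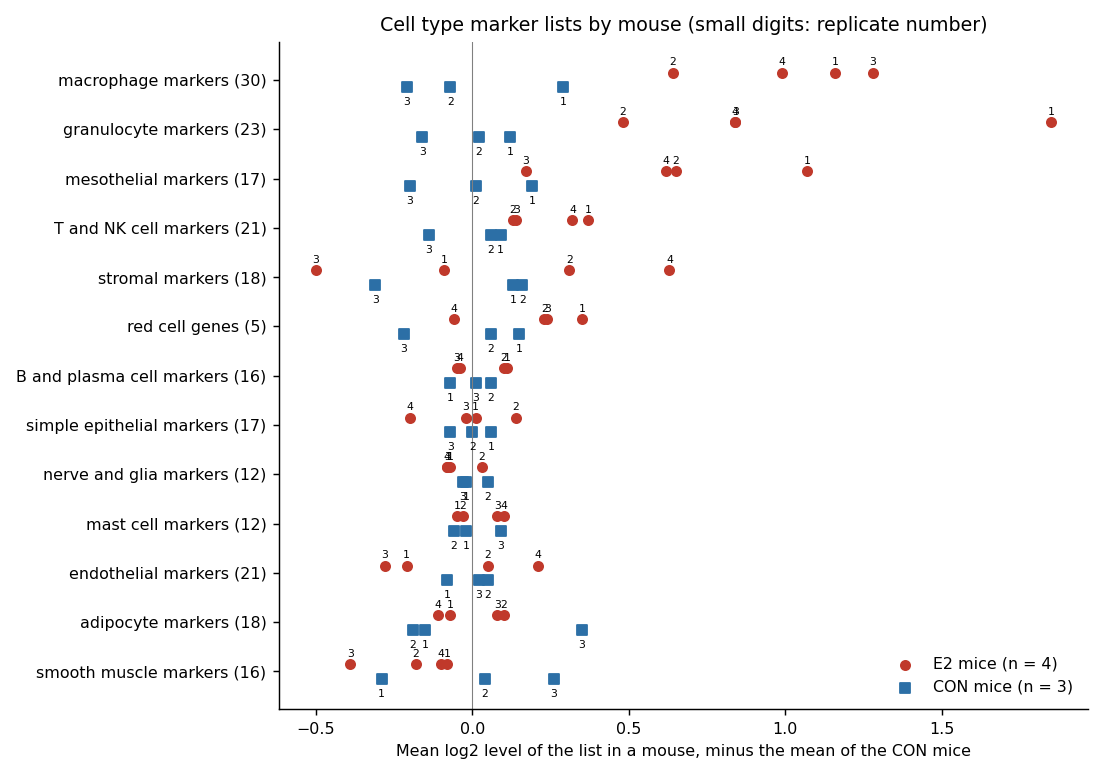
Mean log2 level of each list of cell type markers in each mouse, minus the mean of the 3 CON mice (horizontal), with the number of measured genes in brackets. E2 mice are red circles, CON mice blue squares, and small digits give the replicate; the macrophage list lay between 6.95 and 7.59 in E2 and between 6.10 and 6.60 in CON, before the CON mean was subtracted, while epithelial, endothelial and mast cell lists overlapped.

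Markers of the mesothelium, the outer covering of the uterus, were higher in E2 as well. Msln, which encodes mesothelin, was at 8.89, 7.96, 7.65 and 8.28 in E2, against 7.41, 6.77 and 6.65 in CON (difference 1.25, SE 0.34). Muc16, which encodes a cell-surface mucin of mesothelium and of uterine epithelium, was at 6.68, 6.46, 5.78 and 6.26 in E2, against 5.28, 4.82 and 5.29 in CON (difference 1.17, SE 0.22). Neither gene overlapped between the groups. Of 17 markers 15 were higher, 7 without overlap (41.2%), with a median of 0.57. The mean level of the list was 7.81 to 8.71 in E2 and 7.44 to 7.83 in CON, with E2 mouse 1 highest. Whether mesothelium was in the scraped lining, and had a part in the other differences, was not tested.

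Interferon-stimulated genes were higher in E2 without exception, by an amount that depended on 2 mice. All 29 measured genes had positive differences, 11 of them without overlap (37.9%), and the median was 0.86. It was 0.30 without CON mouse 3 and 0.42 without E2 mouse 4, the 2 mice with lettered codes, and 0.27 over the numbered mice alone. Bst2, which encodes a membrane tether of enveloped viruses, was at 10.26, 9.55, 9.69 and 11.42 in E2, against 8.91, 8.98 and 8.48 in CON (difference 1.49, SE 0.42). Herc6, which encodes a ligase that attaches the ubiquitin-like protein of the interferon response in mouse, was at 7.35, 6.66, 6.87 and 8.34 in E2, against 6.25, 5.84 and 5.98 in CON (difference 1.34, SE 0.31). E2 mouse 4 was highest for both.

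The interferon-induced GTPases and other targets of the transcription factor IRF1 had a median of 1.01, with 19 of 19 higher and 6 without overlap (31.6%). That median was 0.57 without CON mouse 3 and 0.51 over the numbered mice. Gbp2, which encodes a guanylate-binding protein of cell-autonomous defence, was at 10.79, 8.89, 9.01 and 9.93 in E2, against 8.32, 7.86 and 7.47 in CON (difference 1.78, SE 0.50). Cd274, the gene of the checkpoint ligand PD-L1, was at 10.06, 6.83, 7.01 and 7.50 in E2, against 5.85, 5.65 and 5.70 in CON, a difference of 2.11 (SE 0.70) that was 1.38 without E2 mouse 1. Both genes were free of overlap, and E2 mouse 1 was highest for each.

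A promoter of each of the interferon lists is printed here, followed by 2 of chemokine and growth factor genes. Each is 300 bases from RefSeq (GRCm38.p6), from 250 before to 50 after the gene start, on the strand of the gene. Of each gene the first entry that holds its motif is printed, so a match was certain. In Gbp2 (chr3:142620413-142620712, plus strand) and Bst2 (chr8:71537423-71537722, minus strand) capitals mark matches on either strand to GAAA, any 2 bases and GAAA, a core of the interferon-stimulated response element. In Csf1 (chr3:107760420-107760719, minus strand) and Cxcl2 (chr5:90903649-90903948, plus strand) capitals mark matches on either strand to GGGA, any base and TTTCC, a form of the NF-kB site.
Gbp2: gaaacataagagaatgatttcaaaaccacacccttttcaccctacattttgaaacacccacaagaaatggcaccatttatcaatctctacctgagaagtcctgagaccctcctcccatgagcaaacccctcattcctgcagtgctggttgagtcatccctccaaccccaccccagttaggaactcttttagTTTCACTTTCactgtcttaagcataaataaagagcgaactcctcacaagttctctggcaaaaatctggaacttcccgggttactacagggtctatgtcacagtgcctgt
Bst2: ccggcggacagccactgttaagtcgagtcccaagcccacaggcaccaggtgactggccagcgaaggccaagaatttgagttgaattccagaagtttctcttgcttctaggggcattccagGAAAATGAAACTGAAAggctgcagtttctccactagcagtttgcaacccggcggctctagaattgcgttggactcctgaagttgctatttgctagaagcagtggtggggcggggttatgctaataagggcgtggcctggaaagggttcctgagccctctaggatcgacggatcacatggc
Csf1: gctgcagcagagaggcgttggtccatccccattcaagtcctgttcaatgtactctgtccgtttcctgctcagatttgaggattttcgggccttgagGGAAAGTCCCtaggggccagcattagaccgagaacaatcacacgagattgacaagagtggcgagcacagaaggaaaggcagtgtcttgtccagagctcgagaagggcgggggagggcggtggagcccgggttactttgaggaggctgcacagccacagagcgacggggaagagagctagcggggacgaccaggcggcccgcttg
Cxcl2: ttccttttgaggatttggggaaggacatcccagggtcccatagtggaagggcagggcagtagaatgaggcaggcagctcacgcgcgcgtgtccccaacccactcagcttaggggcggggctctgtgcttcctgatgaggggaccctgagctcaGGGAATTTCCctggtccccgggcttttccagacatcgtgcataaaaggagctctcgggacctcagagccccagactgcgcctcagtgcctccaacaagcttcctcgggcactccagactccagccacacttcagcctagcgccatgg

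Matches were counted over all promoters as a background. The interferon motif occurred on either strand in the promoters of 1079 of 27025 genes (3.99%), in 11 of the 19 interferon-stimulated genes that had a promoter entry (57.9%) and in 8 of 12 on the GTPase list (66.7%). It occurred in 0 of the 11 promoters found for the 12 genes of largest positive difference. In Bst2 overlapping matches form 1 run. The NF-kB motif occurred in 126 of 27025 genes (0.466%), and among the CXC chemokine genes in Cxcl1, Cxcl2 and Cxcl3, 3 of 18. On the interleukin 1 and TNF pathway list 2 of 23 promoters held the NF-kB motif. For the 12 genes of largest positive difference 0 of the 11 promoters did. Promoters of the colony-stimulating factor list, which holds Csf1, were not counted. A full estrogen response element, spelled GGTCA, any 3 bases and TGACC, occurred in 20 of 27025 genes (0.074%) and in 0 of 31 promoters of uterine estradiol targets. The lists are defined by their known inducers, so these counts describe the promoters and not the E2 mice, and a window without a match says only that the letters are not in it.

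Antigen presentation genes gave smaller and less even values. MHC class II presentation genes had a median of 0.38 with 16 of 17 higher and 3 without overlap (17.6%, against 3.84% of all genes). H2-Ab1, which encodes a class II chain, was at 9.59, 8.87, 9.78 and 9.65 in E2, against 9.19, 8.21 and 8.13 in CON, where CON mouse 1 lay above E2 mouse 2. MHC class I genes were all positive, 15 of 15, with a median of 0.32, but that median was 0.03 without CON mouse 3, 0.11 without E2 mouse 4 and 0.02 over the numbered mice. Without CON mouse 1 it was 0.49 and without E2 mouse 2 it was 0.48. B2m, the shared light chain gene of class I molecules, averaged 12.47 ± 0.10 in E2 and 12.16 ± 0.15 in CON, a difference of 0.32 that was 0.21 without CON mouse 3.

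Complement genes had a median of 0.66, with 15 of 20 higher, 8 without overlap (40.0%) and 0.42 without CON mouse 3. C4b, which encodes complement component 4, was at 9.21, 8.60, 8.71 and 9.72 in E2, against 8.15, 7.88 and 7.55 in CON (difference 1.21, SE 0.28). C2, which encodes a protease of the same pathway, was at 8.61, 8.38, 8.39 and 8.64 in E2, against 8.06, 7.02 and 6.61 in CON (difference 1.27, SE 0.32). The 4 E2 mice lay close together for C2, and the CON mice spread over more than 1 log2 unit. C4b has a near-identical copy whose signal its probes may share.

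**Figure D3:**
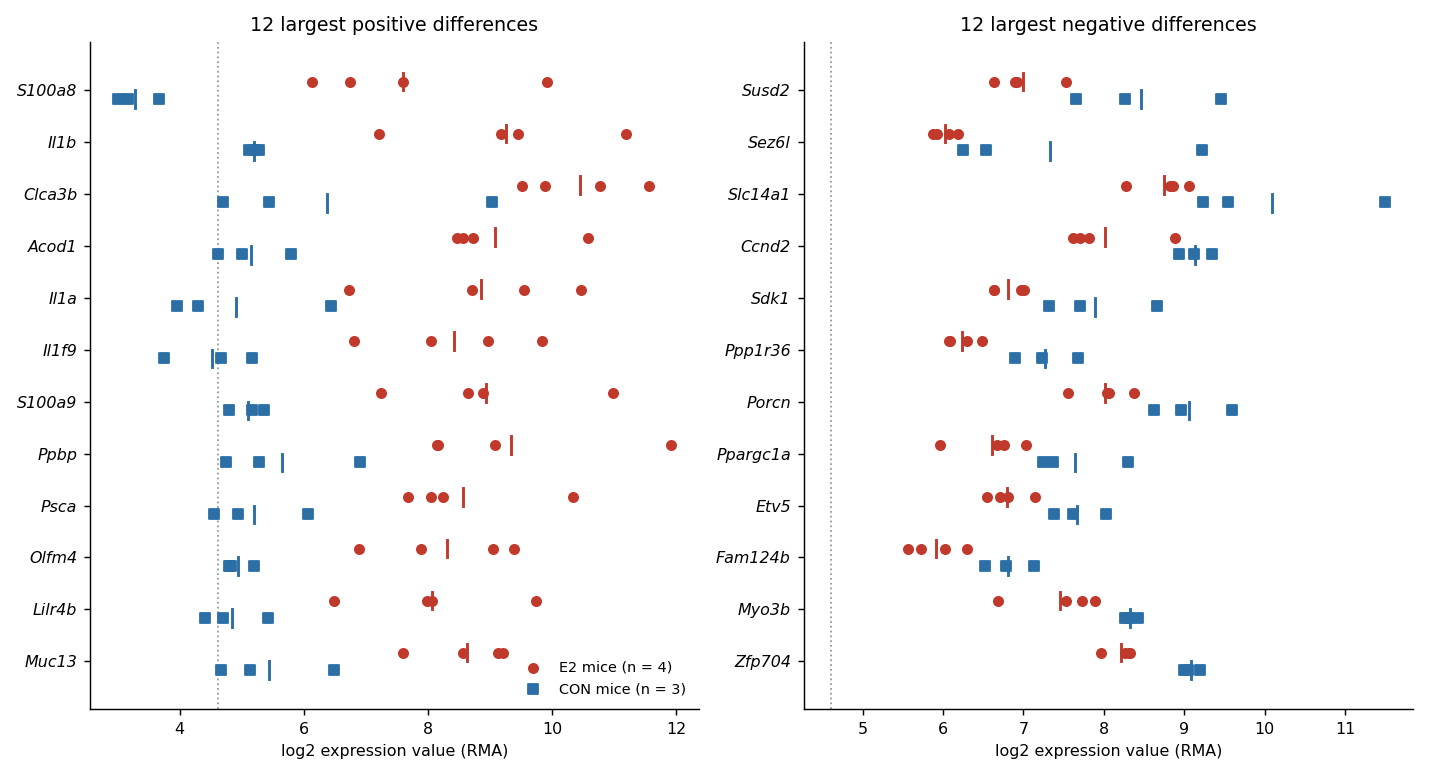
Log2 expression value of each mouse (horizontal) for the 12 genes of largest positive difference (left) and the 12 of largest negative difference (right). E2 mice are red circles drawn above the blue squares of CON mice, short vertical lines are group means, and the dotted line is the array median of 4.61; the positive genes are split by wide gaps and the negative ones by narrow gaps.

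Secreted epithelial products known to respond to estradiol were uneven. Olfm4, which encodes a secreted glycoprotein of mucosal epithelium, was at 9.04, 9.38, 7.89 and 6.89 in E2, against 4.82, 5.20 and 4.79 in CON. It had the smallest p of all genes named here (unadjusted p = 3.29e-05, difference 3.31, SE 0.47). Clca3b, of a family that regulates chloride channels and mucus, was at 11.56, 9.89, 10.77 and 9.52 in E2, against 9.03, 5.43 and 4.69 in CON (difference 3.98, SE 1.00). CON mouse 1 came close to the E2 mice for this gene while CON mice 2 and 3 were far below. Clca3a2, a related neighbour whose probes may share signal, had 8.52, 8.07, 9.32 and 7.37 in E2, against 7.50, 5.36 and 5.17 in CON, with CON mouse 1 inside the range of E2. Sprr2d, a small proline-rich protein gene of a family of similar copies, averaged 8.15 ± 0.82 in E2 and 5.43 ± 1.36 in CON (difference 2.66, SE 0.90).

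Classic markers of estradiol in the mouse uterus overlapped between the groups, and Ltf and Lcn2 among them lay at a high level in both. Ltf, which encodes lactoferrin, was at 12.69, 12.64, 12.86 and 12.36 in E2, against 12.49, 12.08 and 12.02 in CON (difference 0.44, SE 0.23). CON mouse 1 lay above E2 mouse 4, and all 7 mice were near the top of the scale, which ended at 13.83. Lcn2, which encodes lipocalin 2, averaged 11.78 ± 0.27 in E2 and 11.59 ± 0.33 in CON. Greb1, a direct target gene of the receptor in breast and uterus, averaged 7.34 ± 0.21 in E2 and 7.66 ± 0.38 in CON. The growth factor gene Igf1 was at 8.29, 8.16, 7.05 and 8.12 in E2, against 7.53, 7.61 and 6.45 in CON. The 2 groups overlapped for all 4 of these genes. Without CON mouse 3 the difference of Lcn2 was 0.02 in place of 0.17, that of Greb1 -0.13 in place of -0.30 and that of Igf1 0.37 in place of 0.67. Without E2 mouse 4 that of Igf1 was 0.34 and that of Lcn2 0.29. Over the 34 measured uterine estradiol targets, 22 were higher and 12 lower, 5 of them higher without overlap (14.7%, against 3.84% of all genes), and the median was 0.23, with 0.10 without CON mouse 3 and 0.15 without E2 mouse 2.

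Of the 23 genes for mucins and mucosal defence 18 were higher in E2, and 6 did so without overlap (26.1%). S100a8, S100a9 and Muc16 are among the 6 and are also counted on the granulocyte or mesothelial lists. The median of the 23 was 0.39, but it was 0.13 without CON mouse 3, 0.21 without E2 mouse 1, 0.18 without E2 mouse 2 and 0.59 without E2 mouse 4. Muc13, which encodes a membrane mucin, was at 9.13, 9.20, 8.56 and 7.60 in E2, against 6.49, 5.14 and 4.66 in CON (difference 3.16, SE 0.80). Psca, which encodes a small cell-surface antigen of stratified and glandular epithelium, was at 10.34, 8.24, 8.04 and 7.67 in E2, against 6.07, 4.94 and 4.56 in CON (difference 3.38, SE 0.85). Both were free of overlap. Uterine gland genes had a median of 0.44 with 14 of 17 higher, only 1 without overlap (5.88%), and 0.18 without E2 mouse 2. That 1 was Gpx3, a secreted antioxidant enzyme gene, at 9.07, 10.14, 8.28 and 8.30 in E2, against 7.83, 7.95 and 7.48 in CON.

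Receptor genes for steroids and retinoids lay on the lower side. Esr1 was at 8.68, 9.16, 8.87 and 9.13 in E2, against 9.16, 9.55 and 9.62 in CON, a difference of -0.46 (SE 0.24). Its groups met at 9.16 (E2 mouse 2 and CON mouse 1), without overlap by a margin below the printed decimals. Pgr, the progesterone receptor gene and a textbook target of estradiol, was at 9.43, 9.69, 10.08 and 10.62 in E2, against 10.46, 10.24 and 10.91 in CON (difference -0.57, SE 0.40, and -0.89 without E2 mouse 4). The retinoic acid receptor gene Rara averaged 7.79 ± 0.10 in E2 and 8.23 ± 0.11 in CON (difference -0.44, SE 0.11), and its partner Rxra 7.62 ± 0.12 and 7.88 ± 0.06. Of 16 receptor and coregulator genes 12 were lower in E2, 4 without overlap (25.0%, against 3.09% of all genes): Esr1, Rara, Rxra and the coactivator gene Ncoa2. The vitamin D receptor gene Vdr was higher without overlap (1 of 16, 6.25%), at a difference of 0.19 that was 0.07 without CON mouse 3. The median of the 16 was -0.22 and lay between -0.24 and -0.17 whichever mouse was left out. Foxa1, a pioneer factor gene of hormone-responsive epithelium, overlapped at 8.82, 7.22, 7.27 and 6.19 in E2, against 5.31, 6.66 and 5.51 in CON.

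Krt13, Krt5 and Krt15, keratin genes of stratified epithelium, were higher in E2 while simple epithelial markers were level. Krt13, a keratin gene of stratified mucosa, was at 9.30, 8.35, 7.92 and 8.65 in E2, against 7.31, 6.81 and 6.66 in CON (difference 1.62, SE 0.36). The basal keratin gene Krt5 averaged 9.16 ± 0.72 in E2 and 7.71 ± 0.45 in CON (difference 1.40, SE 0.49), and Krt15 averaged 7.39 ± 0.22 in E2 and 6.55 ± 0.16 in CON. None of the 3 overlapped. Itgb4, an integrin gene of the same list, was lower in E2 without overlap. It averaged 7.98 ± 0.22 in E2 and 8.55 ± 0.22 in CON (difference -0.55, SE 0.17). Of 31 squamous epithelium genes 9 were higher without overlap (29.0%) and 2 lower (6.45%). Their median of 0.07 was between 0.03 and 0.14 when 1 mouse was left out. Of the 31, an unadjusted p under 0.05 in limma was reached by 3 on the higher and 1 on the lower side. Simple epithelial markers had a median of -0.03 over 17 genes, with 0 higher and 1 lower without overlap.

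Ion channel and transporter genes, which move water into the uterine lumen, had a median of 0.15 with 16 of 24 higher and 5 without overlap (20.8%). That median was between 0.08 and 0.24 when 1 mouse was left out. Ano1, a calcium-activated chloride channel gene, was at 8.61, 8.38, 7.84 and 8.75 in E2, against 7.69, 7.51 and 7.28 in CON (difference 0.90, SE 0.23). Slc26a4, which encodes the anion exchanger pendrin, was at 8.44, 6.94, 9.19 and 6.14 in E2, against 5.74, 4.95 and 4.69 in CON (difference 2.48, SE 0.98). Neither overlapped, and E2 mouse 3 was lowest for Ano1 and highest for Slc26a4. The steroid-converting enzyme gene Akr1c18, whose product inactivates progesterone, was at 6.68, 10.07, 6.05 and 5.24 in E2, against 5.17, 4.55 and 4.19 in CON. Its difference of 2.30 (SE 1.01) was 1.35 without E2 mouse 2.

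The 12 genes of largest negative difference had no list in common. Susd2, which encodes a membrane protein known as a marker of perivascular stem cells in human endometrium, was at 6.89, 6.64, 6.92 and 7.53 in E2, against 7.66, 8.27 and 9.46 in CON (difference -1.41, SE 0.37). Ccnd2, which encodes cyclin D2, was at 7.82, 7.62, 7.71 and 8.89 in E2, against 9.12, 9.34 and 8.94 in CON, a difference of -1.12 (SE 0.35). E2 mouse 4 all but reached the CON mice for Ccnd2. Porcn, whose product modifies Wnt ligands for secretion, was at 7.56, 8.38, 8.06 and 8.04 in E2, against 8.96, 8.62 and 9.59 in CON (difference -1.01, SE 0.39). Sdk1, a cell adhesion gene, averaged 6.81 ± 0.21 in E2 and 7.89 ± 0.69 in CON (difference -1.04, SE 0.27). Ppargc1a, the coactivator gene of mitochondrial biogenesis, averaged 6.61 ± 0.46 in E2 and 7.64 ± 0.58 in CON (difference -0.98, SE 0.33).

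CON mouse 3 had a large share in 2 of these differences. Sez6l, a membrane protein gene best known from neurons, was at 5.92, 6.08, 6.19 and 5.88 in E2, against 6.25, 6.53 and 9.22 in CON. Its difference of -1.25 (SE 0.51) was -0.31 without CON mouse 3. Slc14a1, a urea transporter gene, was at 8.86, 8.28, 9.06 and 8.82 in E2, against 9.23, 9.54 and 11.50 in CON, and its difference of -1.24 (SE 0.46) was -0.79 without that mouse and also without E2 mouse 4. Ppp1r36, Fam124b, Myo3b and Zfp704 completed the 12, with differences of -1.02, -0.88, -0.86 and -0.86. CON mouse 3 was the highest CON mouse for 71 of the 100 genes of most negative difference. CON mouse 1 was the highest CON mouse for 107 of the 130 genes that were higher in E2 by at least 1.

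Among feedback inhibitors of receptor tyrosine kinases, 3 genes lay lower in E2 without overlap. Spry1 was at 6.65, 6.71, 6.91 and 6.81 in E2, against 7.31, 7.45 and 7.16 in CON (difference -0.54, SE 0.10). Spry2, a second Sprouty inhibitor gene, was at 7.44, 7.30, 7.10 and 7.37 in E2, against 7.97, 8.18 and 7.70 in CON (difference -0.65, SE 0.14). Spred2, a relative that binds Ras pathway proteins, averaged 7.89 ± 0.31 in E2 and 8.58 ± 0.15 in CON (difference -0.68, SE 0.17). The transcription factor gene Etv5, a target of FGF signalling that is counted with them, was at 6.81, 6.55, 6.71 and 7.14 in E2, against 7.62, 8.03 and 7.38 in CON (difference -0.88, SE 0.38). Of the 22 genes in the Sprouty and FGF list 13 were lower and 9 higher in E2, around a median of -0.05 (0.01 without CON mouse 2). Without overlap these 4 were lower (18.2%, against 3.09% of all genes) and 2 were higher (9.09%, against 3.84%). The 2 were Fgf2, a growth factor gene, and Spry3, at differences of 0.22 (0.10 without E2 mouse 1) and 0.12, both named after their values were seen. The EGF family had a median of -0.17 over 17 genes (-0.06 without CON mouse 1). Without overlap 2 of them were lower (11.8%, against 3.09% of all genes) and 1 was higher (5.88%, against 3.84%). The receptor gene Erbb2 averaged 8.04 ± 0.31 in E2 and 8.67 ± 0.12 in CON. Lrig1, whose product restrains those receptors, averaged 8.89 ± 0.36 in E2 and 9.67 ± 0.22 in CON.

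Insulin and developmental signalling genes lay on both sides. Irs1, the docking protein gene of insulin and IGF1 receptors, was at 6.52, 7.32, 7.47 and 8.59 in E2, against 8.38, 8.40 and 9.98 in CON (difference -1.37, SE 0.42), with E2 mouse 4 inside the CON range. Pik3r1, the regulatory subunit gene of the lipid kinase downstream, averaged 9.17 ± 0.25 in E2 and 9.77 ± 0.33 in CON. Igfbp6, which encodes a binding protein that restrains IGF ligands, was higher without overlap, at 9.12 ± 0.34 in E2 and 8.43 ± 0.07 in CON (difference 0.69, SE 0.29). The homeobox gene Barx2 was at 6.53, 6.83, 6.72 and 6.93 in E2, against 7.17, 7.46 and 7.45 in CON (difference -0.60, SE 0.12), and Msx2 averaged 7.17 ± 0.56 in E2 and 8.10 ± 0.26 in CON (difference -0.87, SE 0.21). Bmp5, a bone morphogenetic protein gene, averaged 5.21 ± 0.36 in E2 and 5.93 ± 0.28 in CON, with overlap. The TGF-beta genes of that list lay higher, with differences of 0.51 for the receptor gene Tgfbr2 (0.24 without CON mouse 3), 0.36 for the receptor gene Tgfbr1 and 0.54 for the ligand gene Tgfb1. In the BMP and TGF-beta list 3 of 30 genes were higher without overlap (10.0%), Tgfbr2 among them, and 0 were lower. The IGF, Wnt, BMP and homeobox lists had medians between -0.03 and 0.00.

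Division genes showed no common difference, and E2 mouse 2 stood apart from its group. Mki67, the marker of cycling cells, was at 10.16, 7.25, 10.19 and 9.76 in E2, against 10.25, 9.80 and 9.21 in CON (difference -0.48, SE 0.80). Without E2 mouse 2 the difference was 0.28, and without E2 mouse 4 it was -1.06. Over the 34 genes of replication and mitosis the median was 0.02, and on neither side did any of them lack overlap. Their mean level was 7.97, 6.25, 8.14 and 8.13 in E2, against 8.09, 7.61 and 7.10 in CON, and their median difference was 0.46 without E2 mouse 2 and -0.47 without E2 mouse 4.

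Metalloproteinase and lysosome genes had positive medians. Mmp7, a matrix metalloproteinase gene of epithelium, was at 9.67, 10.88, 10.50 and 8.63 in E2, against 9.62, 5.62 and 5.93 in CON. CON mouse 1 lay within the E2 range, and the difference of 2.76 (SE 1.03) was 1.72 without CON mouse 2. Metalloproteinase and inhibitor genes had a median of 0.37 (0.25 without CON mouse 3), with 7 of 24 higher without overlap (29.2%). Collagens and fibrillar matrix genes had a median of 0.22, which was -0.03 without CON mouse 3 and between 0.03 and 0.40 without any other mouse. Lysosome and cholesterol efflux genes were higher in 20 of 21 cases, 5 without overlap (23.8%), with a median of 0.24 (0.41 without CON mouse 1). Lipa, the lysosomal lipase gene, was at 8.36, 8.59, 8.71 and 8.34 in E2, against 7.78, 7.39 and 7.35 in CON (difference 0.98, SE 0.23). Scarb2, a lysosomal membrane protein gene, was among the 8 of smallest p, at 9.07, 9.21, 9.02 and 8.82 in E2, against 8.62, 8.57 and 8.42 in CON (difference 0.48, SE 0.09).

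Glycolysis and hypoxia response genes were positive in 25 of 26 cases with a median of 0.52, and 5 did not overlap (19.2%). P4ha1, whose product hydroxylates collagen chains and is induced by low oxygen, averaged 7.98 ± 0.23 in E2 and 7.13 ± 0.37 in CON (difference 0.84, SE 0.23). Unfolded protein response genes were positive in 22 of 24 cases with a median of 0.15 (0.10 without CON mouse 1), and 6 were higher and 1 lower without overlap (25.0% and 4.17%). The chaperone cofactor gene Sdf2l1 was at 8.64, 8.48, 8.46 and 8.45 in E2, against 8.13, 8.19 and 7.77 in CON (difference 0.47, SE 0.11). Respiratory chain genes had a median of 0.06, fatty acid oxidation genes -0.08 and fatty acid and cholesterol synthesis genes -0.04, and all 3 depended on single mice. Without E2 mouse 1 they were 0.01, -0.10 and -0.25, and without E2 mouse 3 they were 0.12, -0.04 and 0.14. Adipocyte markers had a median of -0.08 (0.07 without CON mouse 3) and endothelial markers -0.07 (0.03 without CON mouse 2), and smooth muscle markers -0.17 (between -0.24 and -0.10 when 1 mouse was left out).

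**Figure D4:**
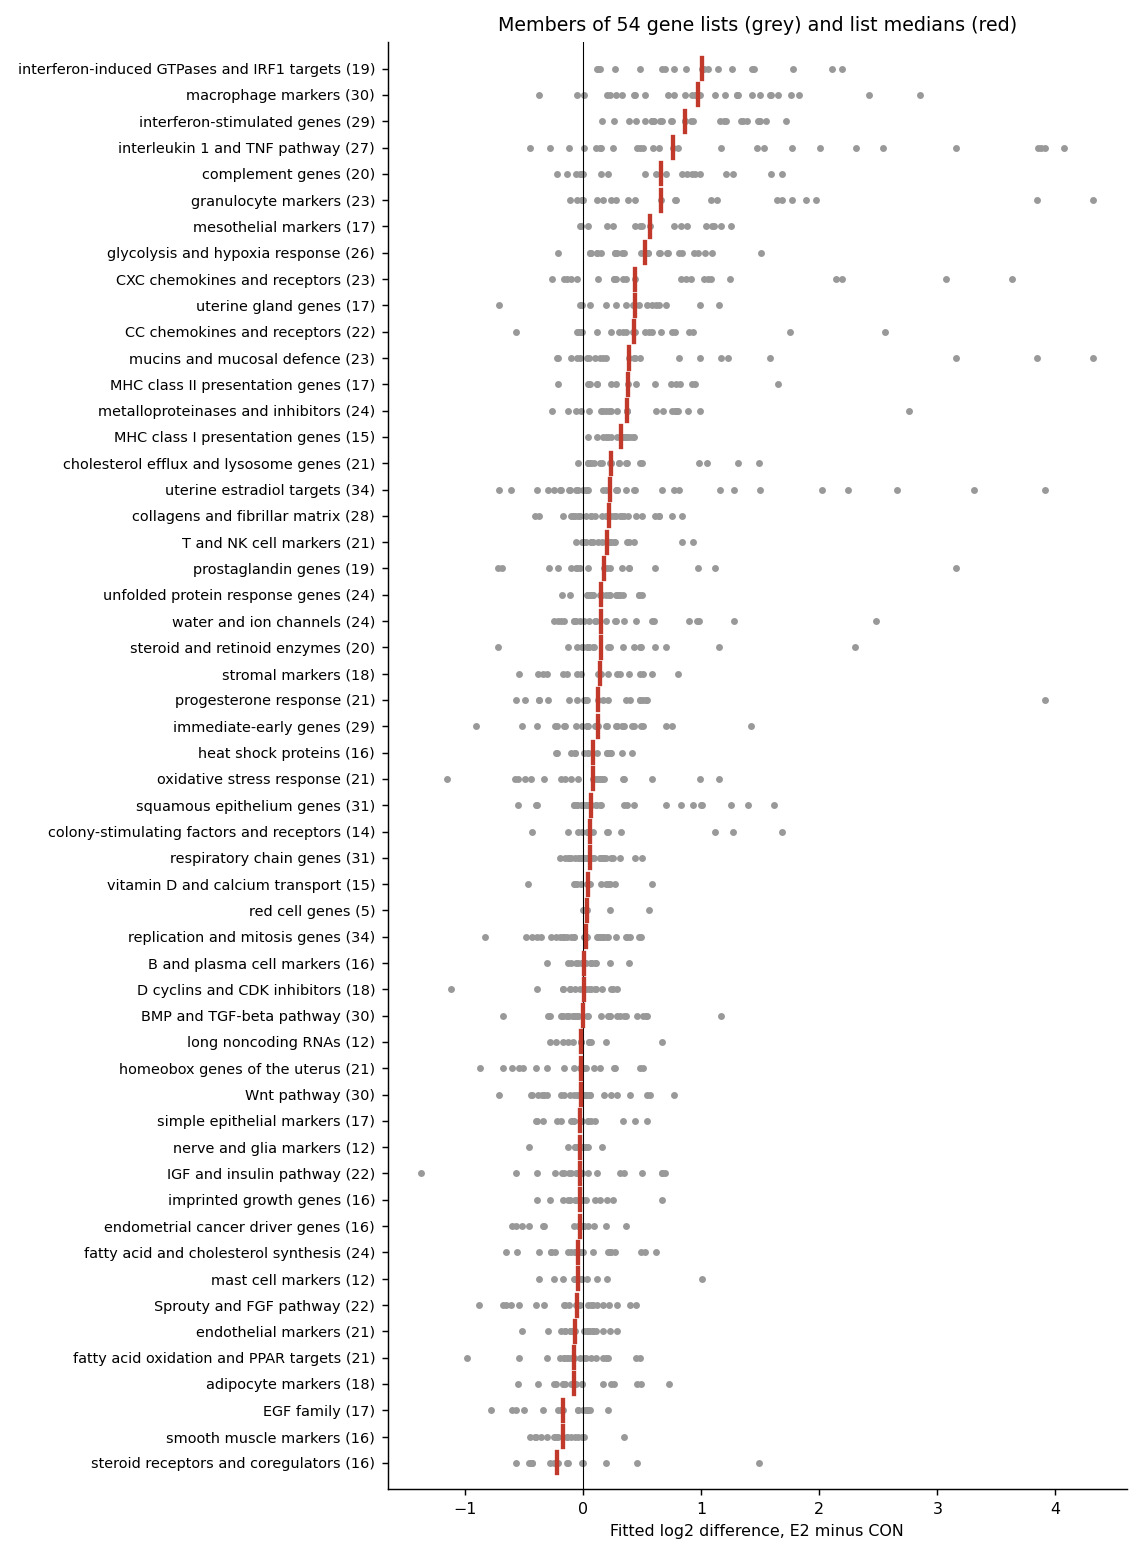
Fitted log2 differences of E2 minus CON (horizontal) for the measured members of 54 gene lists, each member a grey point and each list median a red bar, with the number of members in brackets. The 4 lists at the top are interferon-induced GTPases (median 1.01), macrophage markers (0.97), interferon-stimulated genes (0.86) and the interleukin 1 and TNF pathway (0.76), and the list at the bottom is steroid receptors (-0.22).

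Across the 54 lists 36 medians were positive and 17 negative. The mean level per mouse was higher in every E2 mouse than in every CON mouse for 16 lists and lower for 1. Genes with large differences also varied more among the E2 mice: among the 130 genes higher by at least 1 the median SD was 0.74 within E2 and 0.36 within CON. For genes above the array median in general it was 0.17 in E2 and 0.12 in CON. E2 mouse 1 was the highest E2 mouse for 73 of the 130 and E2 mouse 2 the lowest for 60. Small but tight differences, by contrast, gave several of the smallest p. Rap2a, which encodes a small GTPase, was at 7.09, 7.06, 6.97 and 6.99 in E2, against 6.72, 6.69 and 6.32 in CON (difference 0.43, SE 0.08). Tanc2, which encodes a synaptic scaffold protein, averaged 5.95 ± 0.10 in E2 and 5.57 ± 0.09 in CON (difference 0.39, SE 0.07). Vwa8, which encodes a mitochondrial protein, averaged 7.86 ± 0.14 in E2 and 8.49 ± 0.28 in CON (difference -0.61, SE 0.11).

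Precursors of microRNAs were measured as features of their own. Of 600 precursors 17 were higher (2.83%) and 14 lower (2.33%) in E2 without overlap, below the 3.84% and 3.09% of all genes. The precursor of smallest p was Mir681, at 6.65, 6.88, 6.75 and 7.08 in E2, against 7.41, 7.65 and 8.16 in CON (difference -0.86, SE 0.19). The next 3, Mir1251, Mir136 and Mir365-1, lay below the array median in both groups. Precursors of the miR-200 family, which hold epithelial cells in the epithelial state by repressing Zeb transcription factors, were singled out after their values were seen.

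Mature sequences of that family (RefSeq, GRCm38.p6) are shown to set the precursors by the seed they share. Capitals mark the seed, bases 2 to 8, through which a microRNA pairs with its targets.
mmu-miR-200a-3p: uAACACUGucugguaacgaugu
mmu-miR-141-3p: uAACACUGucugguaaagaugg
mmu-miR-200b-3p: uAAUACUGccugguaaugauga
mmu-miR-200c-3p: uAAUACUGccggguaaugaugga

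The seed AACACUG is shared by miR-200a and miR-141, and AAUACUG by miR-200b and miR-200c. Among the precursors shown, the larger differences were those of Mir200a and Mir200b on chromosome 4. The family member Mir429 is not described here. Mir200a and Mir200b lie next to each other on the minus strand, at chr4:156054896-156054985 and chr4:156055681-156055750. Mir200b was at 4.92, 5.99, 5.33 and 5.25 in E2, against 6.51, 6.83 and 7.62 in CON (difference -1.57, SE 0.51), and Mir200a was at 6.41, 7.01, 5.97 and 6.13 in E2, against 7.04, 7.46 and 8.12 in CON (difference -1.13, SE 0.38). Neither overlapped. Mir200c and Mir141, both on the minus strand of chromosome 6 at chr6:124718322-124718390 and chr6:124717914-124717985, had differences of -0.33 (SE 0.27) and -0.31 (SE 0.19) with overlap, at levels between 3.87 and 5.15. Both were -0.18 when 1 E2 mouse was left out, mouse 1 for Mir200c and mouse 4 for Mir141. A precursor feature can also detect longer host transcripts, which the array does not separate from the microRNA.

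The pellet was also given on the high-fat diet, to other mice, and the MIX and HD mice show whether the same genes lay apart there. They entered the choice of genes through the shared spread and the code style term of the fit, and through the feature that stands for a gene. Of the 395 genes higher in E2, 350 (88.6%) were also higher on average in MIX than in HD, with a median difference of means of 0.55, and 180 (45.6%) had no overlap. Of 19496 genes above the array median 41.8% were higher in MIX and 6.87% lay above HD without overlap. Of the 354 genes lower in E2, 102 (28.8%) were higher in MIX, and 67 (18.9%) lay below HD without overlap, against 9.39% of genes above the median. All 12 genes of largest positive difference were higher in MIX, 10 without overlap, and 9 of the 12 of largest negative difference were lower, 3 without overlap.

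Individual genes kept, lost or turned their direction on the high-fat diet. Olfm4 had a difference of means of 3.36 on chow and 4.83 on the high-fat diet, and Krt5 1.44 and 3.89. Ccnd2 had -1.12 on chow and 0.48 on the high-fat diet, Etv5 -0.87 and 0.54, and Bst2 1.44 and -0.07. The test of the difference between diets called 0 features in limma (0%), while 1382 reached an unadjusted p under 0.05. Its adjusted p was 1 for each of these 5 genes. All 3 MIX mice and HD mouse 3 carry lettered codes, so code style and pellet cannot be fully told apart in these means.

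**Figure D5:**
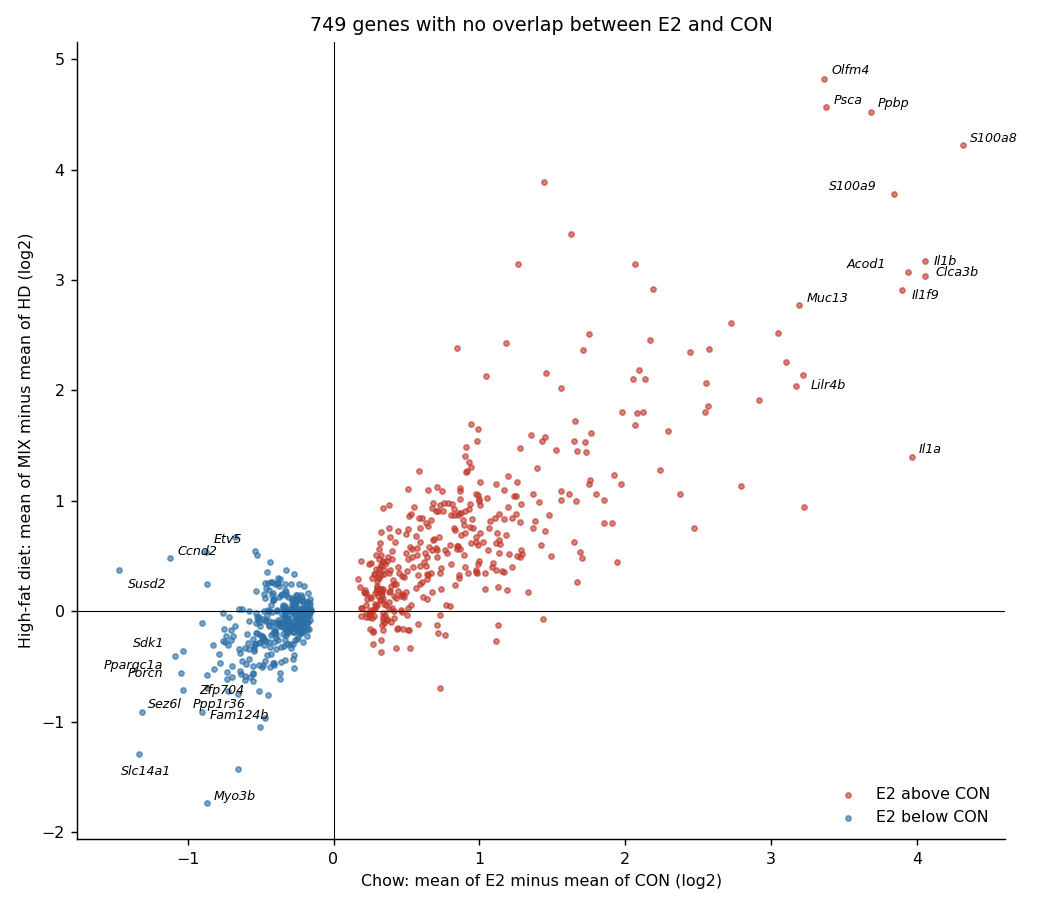
Difference of group means of E2 minus CON on chow (horizontal) against MIX minus HD on the high-fat diet (vertical) for the 749 genes without overlap on chow, in log2 units. Red points are genes higher and blue points genes lower in E2, and the 24 genes named by size are labelled; the red points lie mostly in the upper right, with 350 of 395 above 0, and the blue points gather near 0.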

How the data were processed

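RNA of the scraped uterine lining was measured on Affymetrix arrays, 1 per mouse, in 13 mice. The deposited values are log2 expression values of 65929 features, which the authors made with RMA, per the submitters' processing notes (version not given). No scanner files were used here, so background and probe summary stand as deposited. Features were named from the platform annotation, with 827 symbols updated: 30604 had 1 symbol, 2146 several and 33179 are unnamed here. A gene was represented by its feature of highest mean over 13 mice. Groups came from the titles.

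A linear model over all 13 mice, with a mean per group and a term for the style of the animal code (numbered or lettered), was fitted with limma 3.58.1 in R 4.3.3, with Benjamini-Hochberg adjustment over all features. It had 8 residual degrees of freedom, and the median SE over genes was 0.109. Arrays hold no counts, so the number of mice limits the precision.

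Genes were named by rule. By size, they were the 12 largest differences on each side among genes without overlap, with an unadjusted p under 0.05 and a mean above the array median; by p, the 8 smallest under the same conditions. Predicted symbols, sensory receptors, immune receptor segments and small RNA symbols, microRNA precursors among them, were left out of these rankings. Added were Esr1, Pgr, Ltf, Lcn2, Greb1, Igf1, Mki67, defining cell type markers, up to 4 members of each list by p, and the 4 microRNA precursors of smallest p. The comparison, the 54 lists (1135 measured memberships, 1039 genes), motifs and printed sequences were chosen with earlier results of these data known. Summaries and figures used Python 3.11.15, pandas 2.3.3 and matplotlib 3.10.9. Alternatives were other mice, terms, filters, scaling and weights, a block on replicate number and leaving out each mouse.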

Additional observations from a re-analysis of the deposited data

Results flagged for a closer look

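In 15 of 161 genes and list means tested, 1 of the 4 E2 mice lay far from the other 3 by Dixon's test, which chance does in about 1 of 20 groups. E2 mouse 1 stood high for Acod1 at 10.57 (others 8.47 to 8.72), Sdf2l1 at 8.64 (others 8.45 to 8.48), Krt8 at 11.47 (others 11.18 to 11.22), Fgf2 at 6.31 (others 5.77 to 5.79), Acta2 at 8.85 (others 7.93 to 8.08) and the mean of metalloproteinases and inhibitors at 6.78 (others 6.46 to 6.51). The same mouse stood low for Zfp704 at 7.96 (others 8.27 to 8.33) and for the mean of imprinted growth genes at 5.75 (others 5.90 to 5.91). E2 mouse 2 stood low for Mki67 at 7.25 (others 9.76 to 10.19), the mean of replication and mitosis genes at 6.25 (others 7.97 to 8.14), Greb1 at 7.03 (others 7.43 to 7.45) and the mean of MHC class II presentation genes at 6.48 (others 6.89 to 6.93). It stood high for nerve and glia markers at 5.42 (others 5.31 to 5.32). E2 mouse 3 stood low for Igf1 at 7.05 (others 8.12 to 8.29), and E2 mouse 4 stood high for Ccnd2 at 8.89 (others 7.62 to 7.82). The causes were not tested.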

How the results depend on the processing

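No feature passed an adjusted p of 0.05 in limma under any alternative, and the smallest adjusted p was 0.301, with array weights. The count at an unadjusted p under 0.05, 2651 as reported, was 1617 over features above the median level, 1592 over features with 1 symbol, both with fewer features tested, 5789 with array weights, and 1581 to 4178 when 1 mouse was left out. Features with E2 above CON without overlap, 1987 over all features, numbered 1150 above the median level, 1169 with 1 symbol, 5853 among numbered mice, and 2928 to 4279 without 1 mouse. Features with E2 below CON, 1712 in all, numbered 936 with 1 symbol, 6567 among numbered mice, and 2408 to 5203 without 1 mouse. Fewer mice leave fewer ways to overlap. Deviations of same-numbered E2 and CON mice from their group means had correlations of -0.049, -0.076 and -0.285. Mice with different numbers had correlations from -0.285 to 0.329. So few pairs cannot settle whether the numbers pair the mice. With the replicate block 2923 features had an unadjusted p under 0.05, 0 passed after adjustment, and of the lists with a median of at least 0.3 these moved by over 1.5 times: macrophage markers 0.64 in place of 0.97, interferon-stimulated genes 0.35 in place of 0.86, GTPases 0.58 in place of 1.01, granulocyte markers 0.28 in place of 0.66, CC chemokines 0.27 in place of 0.43, MHC class II 0.17 in place of 0.38 and MHC class I 0.02 in place of 0.32. Of 1706 values of 107 genes under alternatives 12 turned sign, and the cause was not tested. Mki67 was 0.28 without E2 mouse 2, the highest of -1.06 to 0.28 when 1 mouse was left out. Epcam was 0.04 among numbered mice, 0.01 with centred arrays, and 0.04, 0.02 and 0.07 without CON mouse 1, E2 mouse 2 and E2 mouse 4 (-0.07 to 0.07 over single mice). Acta2 was 0.27 among numbered mice, 0.14 without CON mouse 3 and 0.12 without E2 mouse 4 (-0.82 to 0.14). Cpa3 was 0.18 among numbered mice, 0.19 with the block and 0.18 without CON mouse 3 (-0.53 to 0.18). Of 918 list medians under alternatives 30 moved by over 1 SD, and 23 of 54 lists turned sign under at least 1 alternative. Differences of features below the array median are limited by their dim signal.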
